A study of Mus musculus with 6 samples.

Results

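Efferocytosis is the clearance of dying cells by phagocytes. A dying cell exposes phosphatidylserine on its surface, and soluble bridging proteins link this lipid to receptors on the phagocyte. Mfge8 is a secreted bridge that binds phosphatidylserine and, through an RGD motif, the integrins αvβ3 and αvβ5. Gas6 and protein S (Pros1) are vitamin K-dependent bridges to the TAM receptor tyrosine kinases Tyro3, Axl and Mertk. Lrp1 recognizes calreticulin on the dying cell. In the liver, Kupffer cells, infiltrating macrophages and sinusoidal endothelial cells take up dying hepatocytes, and hepatocyte death is a feature of NASH.

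The 10 genes described here are Mfge8, its integrin receptor subunits Itgav, Itgb3 and Itgb5, the TAM receptors Mertk, Axl and Tyro3, their ligands Gas6 and Pros1, and Lrp1, out of 22087 genes on the arrays. They were measured by 11 of the 31873 probe sets, each annotated to only 1 gene symbol. Itgav had 2 probe sets and was represented by the brighter one. Mfge8 was chosen because it was lower in the same comparison of these arrays, so its values are given as a description without a test. The other 9 genes were chosen for their function around Mfge8.

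In STAM mice, a model of NASH with diabetes, each group had 7 animals, and the livers of 3 telmisartan-treated and 3 vehicle-treated mice were each hybridized to a Mouse Gene 2.0 ST array from Affymetrix. The spread between arrays of a group is therefore the spread between mice. All of these animals were male C57BL/6J mice given 200 μg of streptozotocin, a beta cell toxin, at 2 days of age and a diet with 60 kcal% fat from 4 weeks of age, so both groups are diabetic and no untreated or non-diabetic liver was compared. Telmisartan, a blocker of the receptor for angiotensin II, was dosed at 5 mg/kg per day between 6 and 12 weeks of age in 0.5% carboxymethyl cellulose, and the controls received the vehicle. The values are log2 of intensities that were normalized by robust multi-array average (RMA), and differences are telmisartan minus vehicle.

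The arrays were alike, with Pearson correlations across probe sets of 0.984 to 0.991, and array medians ran from 2.85 to 2.93 in log2 intensity. The lowest mean correlation with the remaining arrays was that of vehicle 1 (0.985). Alb, which encodes albumin of hepatocytes, was at 12.88 ± 0.06 in telmisartan-treated and 12.91 ± 0.04 in vehicle-treated livers (SD, n = 3 each). The labels gave no batch or scan time. The study's own limits, a p below 0.05 before adjustment (here from limma) together with a 1.2-fold difference, were used to call a gene higher or lower. Of 23094 probe sets tested, 3.48% were called lower and 3.07% higher, 6.55% in all. In limma, 7% had an unadjusted p under 0.05, and 0% did after adjustment. Among the 5904 brighter probe sets, those that reached 5 on the log2 scale in either group, 6.1% were called lower and 3.2% higher. SE is the standard error of a log2 fold change. Brightness on an array depends on the probes, so levels are compared between groups within a gene and not between genes.

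Mfge8 had 5.26, 4.70 and 4.67 in log2 intensity on the 3 telmisartan arrays, against 5.46, 5.61 and 5.84 on the 3 vehicle arrays (probe set 17492314). On the linear scale these were intensities of 38.3, 26.0 and 25.5 with telmisartan, against 44.0, 48.8 and 57.3 with vehicle. All telmisartan arrays lay below all vehicle arrays. Telmisartan 1 stood above the other telmisartan arrays and was 0.20 below vehicle 1, the lowest vehicle array. The mean was 4.88 ± 0.33 with telmisartan and 5.64 ± 0.19 with vehicle (SD, n = 3 each), which is a log2 fold change of -0.76, or 0.591 of the vehicle level. Leaving out any 1 array kept the log2 fold change of Mfge8 between -0.95 and -0.66. Because Mfge8 was chosen on these arrays, this range describes its values and lends no support to a change. These arrays measured RNA of whole liver, in which fewer cells of a type and less RNA per cell cannot be told apart.

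**Figure D1:**
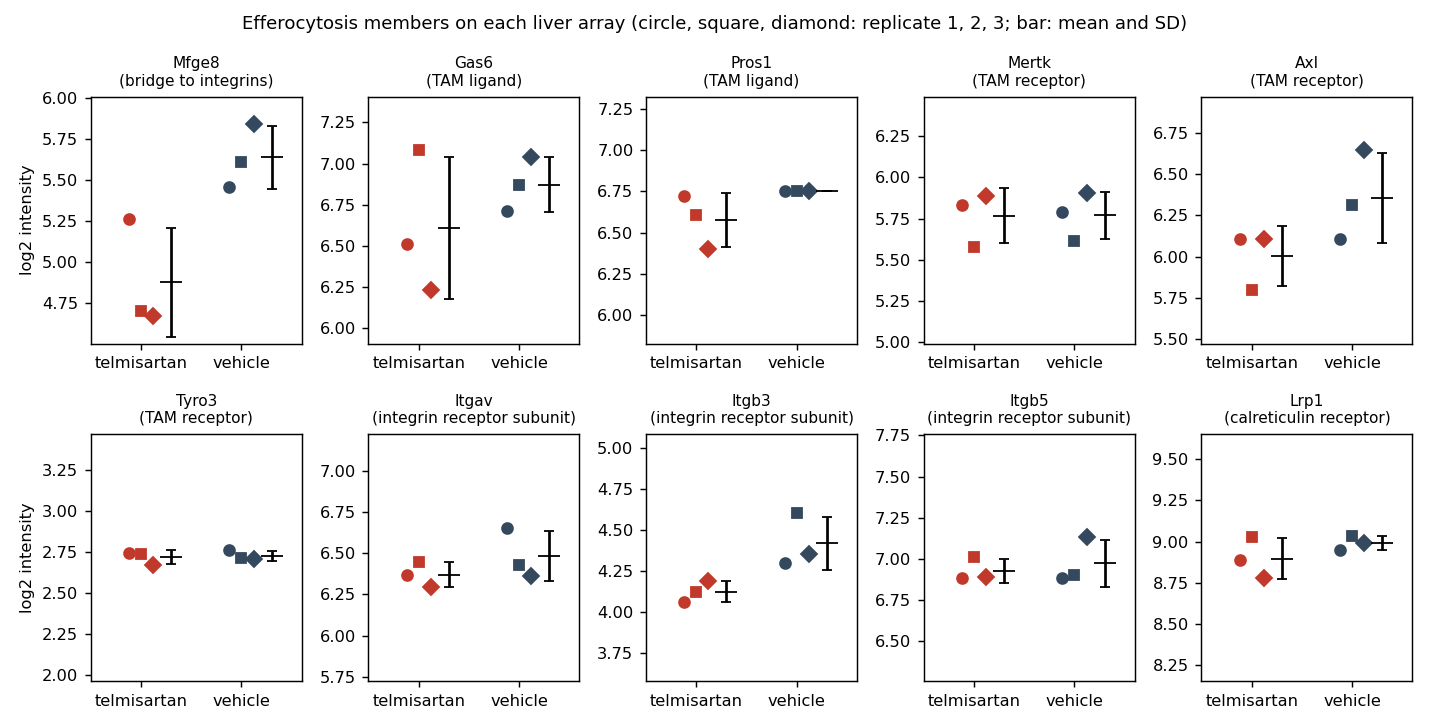
Log2 intensity of the 10 genes on the 3 telmisartan arrays (red) and the 3 vehicle arrays (dark blue), with replicates 1, 2 and 3 as circle, square and diamond, and the mean and SD as a bar; every panel spans the same range of 1.5 on the log2 scale around its own midpoint. Mfge8, chosen for being lower in this comparison, shows the widest separation of its groups, at means of 4.88 with telmisartan and 5.64 with vehicle. The Mertk and Tyro3 groups lie on top of each other.

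The promoter of Mfge8 is shown because this gene carries the largest difference of the set, which it entered for being lower in this comparison. The RefSeq promoter table (GRCm38.p6) held a window for 9 of the 10 genes. The Mfge8 window of 250 bases before the start, at chr7:79149061-79149310 on the minus strand, is printed with its GC boxes in capitals.
Mfge8: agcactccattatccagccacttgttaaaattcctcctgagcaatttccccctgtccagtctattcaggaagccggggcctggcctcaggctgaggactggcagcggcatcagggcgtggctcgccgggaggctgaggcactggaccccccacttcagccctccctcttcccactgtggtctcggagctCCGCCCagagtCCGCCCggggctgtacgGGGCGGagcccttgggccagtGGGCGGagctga
The GC box, GGGCGG on either strand, is a sequence that SP family factors bind, and it occurred 4 times, beginning 61, 50, 33 and 12 bases before the start, the first 2 of these on the opposite strand as CCGCCC. It was found in 8 of the 9 windows, all but that of Itgav, and in 32.7% of the 32851 windows of this length in the table. AGGTCA, the element that PPAR and LXR receptors bind in pairs, was found in 0 of the 9 windows and in 14% of all windows. The letters CCAAT and TATAAA were also in none of the 9 windows, against 33.8% and 12.4% of all windows. A match describes the letters of this window only.

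Of the 9 genes around Mfge8, 1 was called lower and 0 higher, against 3.48% and 3.07% of all probe sets. The called gene was Itgb3. After adjustment over all probe sets, 0 of the 9 passed in limma (lowest adjusted p = 0.698), and before adjustment 1 did. The methods' t-test also called 1, with a lowest adjusted p of 0.809 among the 9. The called count was 0 without telmisartan 1 or vehicle 2 and 2 without vehicle 1, where Axl joined Itgb3. Without telmisartan 2 the count was 1, but the called gene was Gas6 and not Itgb3. The log2 fold changes of the 9 genes ran from -0.35 to -0.0014 with a median of -0.11, while the median of all probe sets was -0.00018. Their sign was negative for 9 of 9, with Mertk turning positive after quantile normalization, cyclic loess or array weighting, and Mertk, Tyro3 or Itgb5 doing so without some of the arrays, and 57.3% of the brighter probe sets also had a negative sign. The telmisartan arrays were all below the vehicle arrays for 2 of the 9, Itgb3 and Pros1, as was the case for 6.24% of all probe sets and 10.9% of the brighter ones.

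Itgav encodes the αv chain, which pairs with several β chains. Its log2 intensities were 6.36, 6.45 and 6.30 with telmisartan, against 6.65, 6.43 and 6.36 with vehicle. The groups overlapped, with only vehicle 1 standing above the rest, and the log2 fold change was -0.11 (SE 0.12, limma adjusted p = 0.860). Its other probe set was dim, at 1.82 ± 0.09 with telmisartan and 1.69 ± 0.06 with vehicle (SD, n = 3 each), and pointed the other way, by 0.13. The 95% interval of the brighter probe set, -0.38 to 0.15, leaves room for a change of more than 1.2-fold (0.26 on the log2 scale) downward and not upward. Without vehicle 1 the change was -0.03.

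Itgb3 encodes the β3 chain, the partner of αv in the receptor through which Mfge8 drives engulfment, and on platelets the partner of Itga2b. Its log2 intensities were 4.06, 4.12 and 4.19 with telmisartan, against 4.30, 4.60 and 4.35 with vehicle. The groups did not overlap and lay 0.11 apart at their nearest arrays. The log2 fold change was -0.29 (SE 0.12, limma p before adjustment 0.0344, limma adjusted p = 0.698), or 0.816 of the vehicle level. This probe set was below 5 in log2 intensity in each group. The call was lost without telmisartan 1 (p of 0.0932 in limma), telmisartan 2 (0.0660) or vehicle 2 (0.128), and with a pseudocount of 4 the change, -0.24, was under 1.2-fold.
Platelet markers were measured because platelets carry β3. Of 8 measured platelet and megakaryocyte genes, 1 was lower (12.5%, against 3.48% of all probe sets and 6.1% of the brighter ones). It was Ppbp, a platelet chemokine, and 1 gene of 8 is no result about the list. The median log2 fold change of the 8 genes was -0.03. The call of Ppbp was kept only without vehicle 1. Their summed intensity was 107 to 113 with telmisartan and 97.2 to 135 with vehicle, so the groups overlapped. Itga2b, the αIIb chain, was at 3.47 ± 0.12 with telmisartan and 3.33 ± 0.14 with vehicle (SD, n = 3 each), a log2 fold change of 0.15 that did not pass. The part of platelets in the Itgb3 values was not tested.

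Itgb5 encodes the β5 chain, the other αv partner that binds Mfge8. It was at 6.88, 7.01 and 6.89 in log2 intensity with telmisartan, against 6.88, 6.90 and 7.14 with vehicle. Vehicle 3 was the highest array and the remaining values intermingled, with a log2 fold change of -0.04 (SE 0.11, limma adjusted p = 0.950) and a 95% interval of -0.30 to 0.21. Within each array, the difference Itgb3 minus Itgb5 was -2.80 ± 0.09 with telmisartan and -2.55 ± 0.24 with vehicle on the log2 scale (SD, n = 3 each), so the change of Itgb3 was not separated from that of Itgb5 (exact permutation test, 2-sided, p = 0.2, adjusted p = 0.3 over 3 pairs, where 0.1 is the smallest unadjusted p possible).

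**Figure D2:**
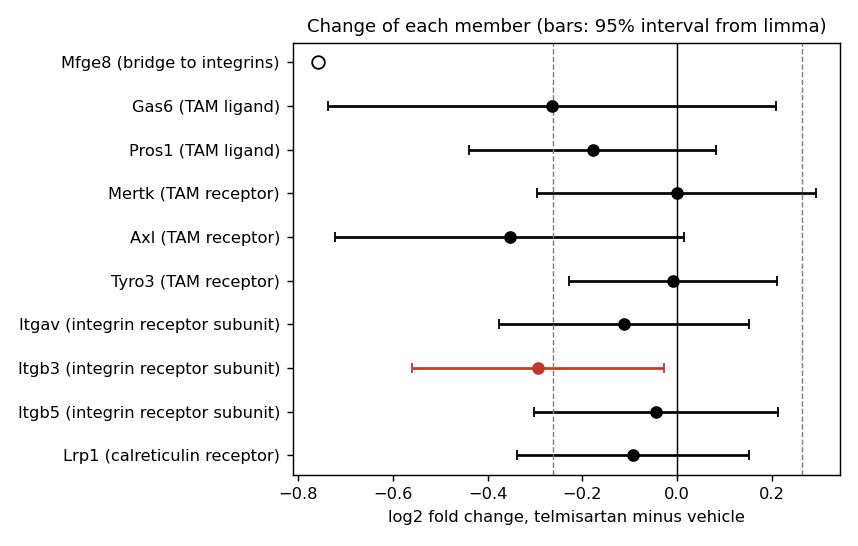
Log2 fold change of each gene, telmisartan minus vehicle, with the 95% interval from limma; the dashed lines mark a fold of 1.2, red marks the gene past the thresholds, and Mfge8 is an open circle without an interval because it was chosen on this value. Itgb3 at -0.29 is the only red point, and the interval of Axl just reaches past 0.

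Gas6, the ligand of all TAM receptors, was the most variable of the genes around Mfge8. Its log2 intensities were 6.51, 7.08 and 6.23 with telmisartan, against 6.71, 6.87 and 7.04 with vehicle. Telmisartan 2 was the highest of all arrays and telmisartan 3 the lowest, so the telmisartan group spanned the vehicle group. The SD was 0.43 with telmisartan and 0.16 with vehicle (n = 3 each). The log2 fold change was -0.26 (SE 0.21, limma adjusted p = 0.807), with a 95% interval of -0.74 to 0.21. It moved both ways with single arrays, to -0.50 without telmisartan 2, where it passed the thresholds (limma p before adjustment 0.0129), and to -0.076 without telmisartan 3 (limma p before adjustment 0.708).
Pros1 encodes protein S, a TAM ligand that also acts as an anticoagulant in plasma and is made by hepatocytes. It had 6.72, 6.61 and 6.40 in log2 intensity with telmisartan, against 6.75 on each vehicle array. All telmisartan arrays were lower, the nearest by only 0.03, and the log2 fold change of -0.18 was under 1.2-fold (SE 0.11, limma adjusted p = 0.774; exact permutation test p = 0.1, the smallest possible). The change was -0.09 without telmisartan 3 and -0.25 without telmisartan 1, and neither passed. The 3 vehicle values of Pros1 were identical to 9 significant digits. Of all probe sets, 5234 (16.4%) had an identical value on at least 2 arrays and 1339 (4.2%) on at least 3, so an SD of 0 here is a property of the deposited values and the moderated variance of limma was used.
The difference Gas6 minus Pros1 within arrays was 0.03 ± 0.38 with telmisartan and 0.12 ± 0.16 with vehicle (SD, n = 3 each; exact permutation test, 2-sided, p = 0.8, adjusted p = 0.8). Neither ligand was separated from the other in its change.

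Axl, a TAM receptor that binds Gas6, had 6.11, 5.79 and 6.11 in log2 intensity with telmisartan, against 6.11, 6.31 and 6.65 with vehicle. Telmisartan 1, telmisartan 3 and vehicle 1 shared an identical value, so the groups touched without crossing. The means were 6.00 ± 0.18 with telmisartan and 6.36 ± 0.27 with vehicle (SD, n = 3 each), with a log2 fold change of -0.35 (SE 0.16, limma p before adjustment 0.0575, limma adjusted p = 0.709) and a 95% interval of -0.72 to 0.01. Axl was not called, and it passed the thresholds without vehicle 1, where the log2 fold change was -0.48 (limma p before adjustment 0.0187), and after median centring, array weighting or the replicate block. It was smaller without vehicle 3, at -0.21 (limma p before adjustment 0.205), and without telmisartan 2, at -0.25 (limma p before adjustment 0.189).
Mertk, the TAM receptor of macrophages through which they engulf dying cells, had 5.84, 5.58 and 5.89 in log2 intensity with telmisartan, against 5.79, 5.62 and 5.90 with vehicle. The groups lay over each other, with replicate 2 the lowest of each. Its log2 fold change was -0.0014 (SE 0.13, limma adjusted p = 1.0 to 3 digits), and the 95% interval of -0.30 to 0.29 allows a change of 1.2-fold in either direction.
Tyro3, the TAM receptor best known from the nervous system, had 2.75, 2.74 and 2.67 in log2 intensity with telmisartan, against 2.76, 2.71 and 2.71 with vehicle. Of all probe sets tested, 40.4% were dimmer, so these values are near the low end of the scale and bound a change weakly. Its log2 fold change was -0.01 (SE 0.10, limma adjusted p = 0.992).
Axl minus Mertk within arrays was 0.27, 0.22 and 0.22 with telmisartan, against 0.32, 0.70 and 0.75 with vehicle. All telmisartan arrays were lower, by 0.35 in the mean (exact permutation test, 2-sided, p = 0.1, the smallest possible, adjusted p = 0.3 over 3 pairs). These pairs were chosen after the values were seen.

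Lrp1 encodes a large endocytic receptor of hepatocytes and macrophages. Its log2 intensities were 8.89, 9.03 and 8.78 with telmisartan, against 8.95, 9.03 and 8.99 with vehicle. The groups overlapped through telmisartan 2, and the log2 fold change was -0.09 (SE 0.11, limma adjusted p = 0.880) with a 95% interval of -0.34 to 0.15. It was -0.16 without telmisartan 2 and -0.03 without telmisartan 3. Calr, its ligand on the dying cell, was at 10.33 ± 0.15 with telmisartan and 10.44 ± 0.33 with vehicle (SD, n = 3 each), a log2 fold change of -0.10 that did not pass.

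Markers of liver cell types were read from the same arrays. Liver endothelial markers were lower for 10 of 14 genes (71.4%, against 3.48% of all probe sets and 6.1% of the brighter ones), with a median log2 fold change of -0.48. Their summed intensity was 1246, 825 and 894 on telmisartan arrays 1 to 3, against 1362, 1270 and 1564 on vehicle arrays 1 to 3, and the groups did not overlap. The highest and lowest arrays were telmisartan 1 and 2 in the telmisartan group and vehicle 3 and 2 in the vehicle group, while for Mfge8 the lowest were telmisartan 3 and vehicle 1. Lyve1, a hyaluronan receptor of sinusoidal endothelium, showed a log2 fold change of -0.60 (SE 0.16), and Oit3, a zona pellucida domain protein of these cells, -0.63 (SE 0.16). The lower endothelial genes were 5 without telmisartan 2, telmisartan 3 or vehicle 3 and 4 with the methods' t-test.
Kupffer cell markers were lower for 6 of 15 genes (40%, against 3.48% of all probe sets and 6.1% of the brighter ones), with a median of -0.22. Their summed intensity was 1177 to 1427 with telmisartan and 1447 to 1748 with vehicle. The nearest sums were those of telmisartan 2 and vehicle 1, and their order rests on C6. This gene had 7.72 in log2 intensity on telmisartan 2 and 8.07 on vehicle 1, against 6.47 and 6.10 on vehicle 2 and 3. Csf1r, the receptor for macrophage colony-stimulating factor, showed a log2 fold change of -0.35 and Vsig4, a complement receptor, one of -0.28, and both calls were lost without telmisartan 1, telmisartan 3, vehicle 2 or vehicle 3. The sign was negative for 12 of the 15 genes. Clec4f, C6 and Xcr1 had positive log2 fold changes of 0.04, 0.33 and 0.08, and Adgre1 and Timd4 had -0.05 and -0.12, none of them called. The marker genes given with values are named after these were seen. The lower Kupffer cell genes were 1 without telmisartan 3 or vehicle 3, 2 without vehicle 2 or with the methods' t-test, and 3 without telmisartan 1. Stellate cell markers were lower for 5 of 15 genes (33.3%, against 3.48% of all probe sets and 6.1% of the brighter ones), with a median of -0.22. Their summed intensity was 597 to 793 with telmisartan and 780 to 973 with vehicle. They were lower for 8 genes without vehicle 1, 3 without telmisartan 3, 2 without telmisartan 2 or vehicle 3, and 1 without vehicle 2 or with the methods' t-test. The called genes were Lrat, Pdgfra, Dcn, Hgf and Lum. Col1a1, Col1a2, Col3a1, Acta2 and Des had log2 fold changes of -0.23, -0.18, -0.0054, -0.18 and -0.17, and Colec11 had 0.09, none of them called.
Monocyte and macrophage markers were lower for 1 of 12 genes (8.33%, against 3.48% of all probe sets and 6.1% of the brighter ones). It was Cd9, a tetraspanin, and 1 gene of 12 is no result about the list. Only Lyz2, Cd9 and Fn1 of this list reached 5 in log2 intensity in either group. The lower genes of the list were 3 without vehicle 1, 2 without telmisartan 2 and 0 without telmisartan 3, without vehicle 3 or by the methods' t-test. The sign was negative for 8 of the 12. Lyz2 of this list went the other way without being called, with a log2 fold change of 0.30. It had 7.06, 6.99 and 7.00 in log2 intensity with telmisartan, against 6.44, 6.81 and 6.92 with vehicle. With quantile normalization, cyclic loess or a pseudocount of 4, 1 gene of this list was called higher. The summed intensity of the list was 1826 to 2324 with telmisartan and 2022 to 2318 with vehicle. Most of this sum was Fn1, at 10.76 ± 0.22 in log2 intensity with telmisartan and 10.91 ± 0.09 with vehicle (SD, n = 3 each). The sum therefore says little about the other genes of the list. Hepatocyte markers were lower for 0 of 13 genes and had a median of 0.0022, at 37644 to 41572 with telmisartan and 38748 to 40494 with vehicle, with 0 past the p threshold in limma and 0 called by the methods' t-test. Cholangiocyte, neutrophil and lymphocyte markers, of 8, 9 and 9 genes, also had 0 past the p threshold in limma, with medians of 0.01, -0.07 and -0.13, and at most 1 in a direction without any 1 array. All neutrophil markers, all lymphocyte markers but Ighm and all cholangiocyte markers but Cdh1 were below 5 in log2 intensity in both groups. These lists therefore bound a change weakly. No marker was listed at 0, since the lowest intensity in the table was 1.42. The part of these cell types in the values of Mfge8, Axl and Itgb3 was not tested.

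**Figure D3:**
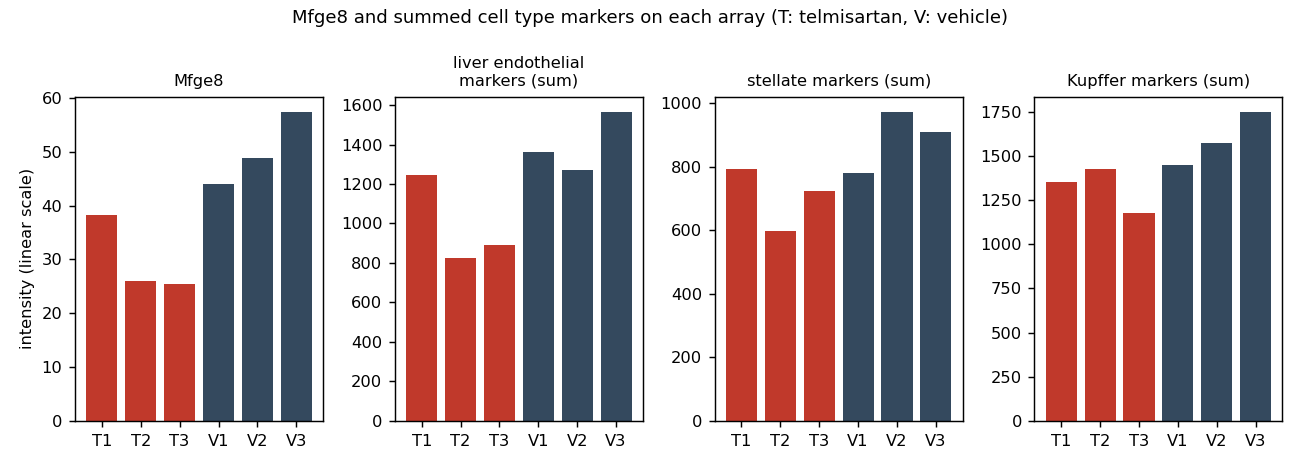
Intensity of Mfge8 and summed intensities of the liver endothelial, stellate and Kupffer cell markers on a linear scale from 0, as 1 bar per array, with telmisartan arrays in red and vehicle arrays in dark blue. Telmisartan 2 and 3 are the lowest arrays for Mfge8 (26.0 and 25.5), for the endothelial sum (825 and 894) and for the stellate sum (597 and 725), although the stellate sums of the groups overlap because telmisartan 1 (793) is above vehicle 1 (780). The Kupffer sum has another order, with telmisartan 2 (1427) above telmisartan 1 (1351) and telmisartan 3 (1177). That telmisartan 2 lies below vehicle 1 (1447) in this sum rests on the gene C6.

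The genes with the profile nearest to that of Mfge8 were found among 5596 genes of mean log2 intensity of at least 5, by the root mean square difference over the 6 arrays after each gene was centred on its own mean. Mfge8 itself varied by 0.44 around its mean by this measure. The nearest 5 genes were Nrp2 (0.106), a co-receptor for VEGF, B4galt5 (0.108), a galactosyltransferase, Srgn (0.111), a granule proteoglycan of blood and endothelial cells, Plekhb1 (0.112) and Trp53i11 (0.123). Each was higher on telmisartan 1 than on telmisartan 2 and 3 and highest of all on vehicle 3. Nrp2 had 5.28, 4.81 and 4.89 in log2 intensity with telmisartan, against 5.55, 5.54 and 5.75 with vehicle. Because the measure includes the difference between groups, these genes are lower with telmisartan by construction.

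**Figure D4:**
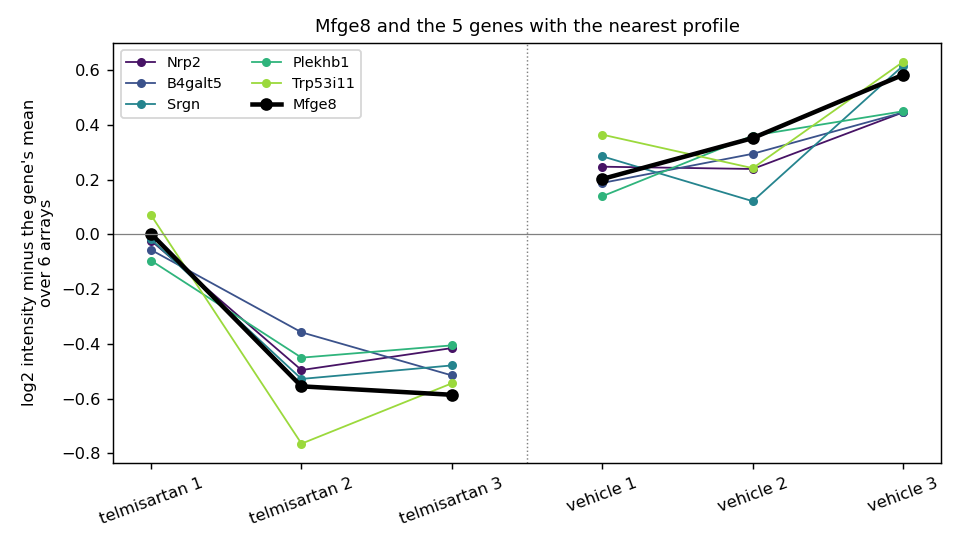
Log2 intensity of Mfge8 (black) and its 5 nearest genes on each array, centred on the mean of each gene over the 6 arrays; lines join the arrays of a group only to guide the eye. All 6 genes lie near 0 on telmisartan 1, below 0 on telmisartan 2 and 3 and highest on vehicle 3, and Mfge8 runs between -0.59 and 0.58.

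Beyond these genes, lists of 135 further efferocytosis genes held 128 that were measured by a probe set of 1 symbol. Of these, 15 (11.7%) were called lower and 1 was called higher, against 3.48% and 3.07% of all probe sets and 6.1% and 3.2% of the brighter ones. Their median log2 fold change was -0.10. Of the 135 listed genes, 10 are also in a cell type list above. Among them are Marco, Stab2 and Pecam1, which were called lower and are therefore counted in both places, and Spp1, which was not measured. The lower genes were 9 with the methods' t-test, which left Marco, Itga5, Stab2, Pparg, Sirpa and Pecam1 uncalled among the genes named, 9 without telmisartan 3 and 10 without vehicle 2 or vehicle 3, and the higher ones were 3 without vehicle 3. In limma, 18 passed the p threshold before adjustment and 0 after it.
Of 19 further bridging molecules, among them complement C1q, thrombospondin 1 and galectin 3, 0 were called, 0 passed the p threshold in limma and the methods' t-test called 0. The lower ones were 3 with array weights or without vehicle 1, 2 after median centring or with the replicate block, and 1 with quantile normalization, cyclic loess or without telmisartan 1 or telmisartan 2. Edil3, the closest relative of Mfge8, was dim, at 1.79 ± 0.13 with telmisartan and 1.73 ± 0.03 with vehicle (SD, n = 3 each), with a log2 fold change of 0.07.

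Of 28 other engulfment receptors, 5 were lower (17.9%, against 3.48% of all probe sets and 6.1% of the brighter ones). Only 1 was higher, which is near the 3.07% of all probe sets and 3.2% of the brighter ones and is no result about the list. The lower receptors were 3 without telmisartan 2 or telmisartan 3 and 2 by the methods' t-test. Without vehicle 3, 2 were higher. Marco, a scavenger receptor of Kupffer cells, had 5.92, 5.84 and 4.93 in log2 intensity with telmisartan, against 6.18, 6.86 and 7.71 with vehicle. Msr1, the scavenger receptor A of macrophages, had 4.84, 5.01 and 4.55 with telmisartan, against 5.32, 5.34 and 5.45 with vehicle, a log2 fold change of -0.57 (SE 0.14). Neither gene's groups overlapped, and limma called both without any 1 of the arrays, while the methods' t-test called Msr1 and not Marco.
Stab2, a phosphatidylserine receptor of sinusoidal endothelium, showed a log2 fold change of -0.38 (SE 0.16), and its call held only when vehicle 1 was the array left out. Itga5, the partner of β1 in the fibronectin receptor, gave -0.46 (SE 0.16), and its call was lost without telmisartan 2, telmisartan 3 or vehicle 1. Cd300a, an inhibitory phosphatidylserine receptor, gave -0.51 and the β8 chain Itgb8, another partner of αv, rose by 0.36 (SE 0.11). These last genes were below 5 in log2 intensity and are named after their values were seen.
Itgb8 had 3.51, 3.67 and 3.41 in log2 intensity with telmisartan, against 3.12, 3.20 and 3.18 with vehicle. It was the only αv partner among Itgb1, Itgb3, Itgb5, Itgb6 and Itgb8 that was called higher. Limma called it without any 1 of the arrays, but the call ended with a pseudocount of 4, with a fold of 1.5 and with the filter on dim probe sets, which removed it. Itgb1, the most widely expressed β chain, was at 7.79 ± 0.02 with telmisartan and 7.84 ± 0.07 with vehicle (SD, n = 3 each), a log2 fold change of -0.05.
The receptors Cd36, which binds oxidized lipids and thrombospondin, Stab1, a scavenger receptor, and Timd4, a phosphatidylserine receptor of resident macrophages, had log2 fold changes of -0.19, -0.23 and -0.12. None of them passed the thresholds. Cd36 was at 9.19 ± 0.08 with telmisartan and 9.38 ± 0.08 with vehicle (SD, n = 3 each), and its groups did not overlap.

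**Figure D5:**
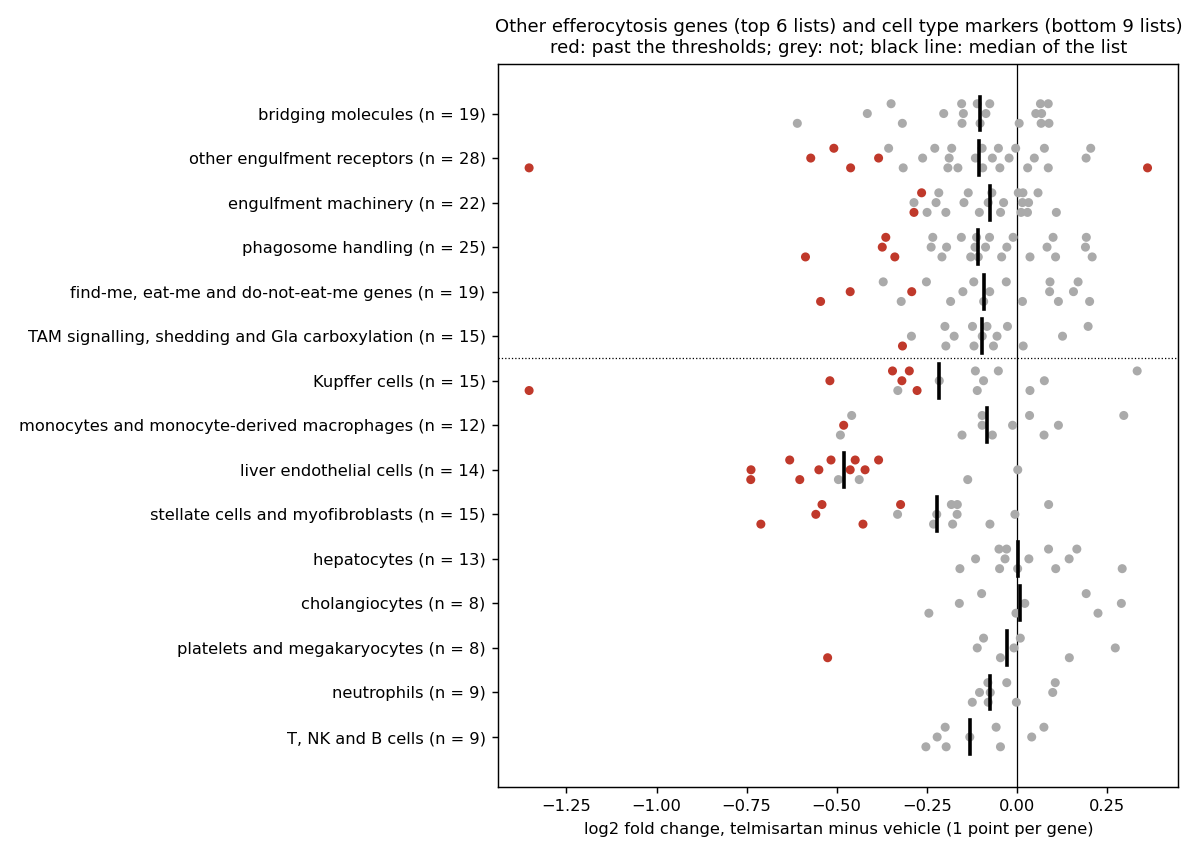
Log2 fold change, telmisartan minus vehicle, of each measured gene in the 6 efferocytosis lists (above the dotted line) and the 9 cell type lists (below it), with genes past the thresholds in red, others in grey and the median of each list as a black line. The endothelial list is shifted the most, with a median of -0.48, and the hepatocyte list lies around 0.

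Of 22 genes of the engulfment machinery, 2 were lower (9.09%, against 3.48% of all probe sets and 6.1% of the brighter ones). A count of 2 in 22 is no result about the list. The count was 1 without telmisartan 3 or vehicle 2 and 0 without vehicle 3. Dnm2, the dynamin that pinches off vesicles, gave -0.26 (SE 0.11), and Elmo1, a partner of Dock1 in Rac activation, gave -0.29 (SE 0.10). Elmo1 was dim, at 3.74 ± 0.11 with telmisartan and 4.03 ± 0.03 with vehicle (SD, n = 3 each), and is named after its values were seen. The call of Dnm2 held only without telmisartan 2, and that of Elmo1 was lost without telmisartan 3 or vehicle 3.
Of 25 genes of phagosome handling and its regulators, 4 were lower (16%, against 3.48% of all probe sets and 6.1% of the brighter ones). Ctsb, the lysosomal protease cathepsin B, had 10.20, 10.09 and 10.07 in log2 intensity with telmisartan, against 10.38, 10.47 and 10.63 with vehicle, a log2 fold change of -0.37 (SE 0.11). Cybb, the catalytic subunit of the phagocyte NADPH oxidase, had 5.93, 5.93 and 5.89 with telmisartan, against 6.09, 6.26 and 6.42 with vehicle, and its call was lost without vehicle 3. The groups of Ctsb and Cybb did not overlap.
The remaining lower genes of this list were Slc29a3, a lysosomal nucleoside transporter that was below 5 in log2 intensity, and Pparg. Pparg is a nuclear receptor that in macrophages raises the expression of efferocytosis genes, and its call at -0.36 (SE 0.13) was lost without telmisartan 1, telmisartan 2, vehicle 2 or vehicle 3. Nr1h3, which encodes LXRα, an activator of Mertk in macrophages, was at 6.11 ± 0.10 with telmisartan and 6.14 ± 0.04 with vehicle (SD, n = 3 each), a log2 fold change of -0.03. Without vehicle 3 this list had 2 lower genes and 1 higher.
Of 19 find-me, eat-me and do-not-eat-me genes, 3 were lower (15.8%, against 3.48% of all probe sets and 6.1% of the brighter ones) and 0 higher. The lower count was 1 without telmisartan 2, without telmisartan 3 or by the methods' t-test. Sirpa, the phagocyte receptor for the do-not-eat-me signal Cd47, showed a log2 fold change of -0.29 and Pecam1, an adhesion molecule of endothelium and leukocytes, one of -0.46. Both calls were lost without telmisartan 2, telmisartan 3, vehicle 2 or vehicle 3. Atp8a1, a flippase that keeps phosphatidylserine inside the cell, was at 3.76 ± 0.27 with telmisartan and 4.30 ± 0.07 with vehicle (SD, n = 3 each), a log2 fold change of -0.54. Limma called it without any 1 of the arrays, and it is named after its values were seen.
Of 15 genes of TAM signalling, receptor shedding and the carboxylation of Gas6 and Pros1, 1 was lower, a share of 6.67% that is near the 6.1% of the brighter probe sets and is no result about the list. The count was 0 without telmisartan 2, telmisartan 3 or vehicle 2 and 2 without vehicle 1 or vehicle 3. The called gene was Ggcx, the vitamin K-dependent carboxylase that makes the lipid-binding domain of both ligands functional. It had 7.48, 7.28 and 7.15 in log2 intensity with telmisartan, against 7.56, 7.63 and 7.67 with vehicle, and the groups did not overlap. The log2 fold change was -0.32 (SE 0.12, limma p before adjustment 0.0253), and the call was lost without telmisartan 2, telmisartan 3, vehicle 2 or vehicle 3.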

How the data were processed

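Liver RNA of 3 telmisartan-treated and 3 vehicle-treated mice was hybridized to 1 array each. The authors ran RMA (version not given in the sources used here), and the table they deposited holds linear intensities of 31873 probe sets, between 1.42 and 7835. These were used as log2 with no value added and no further scaling. The probe table gave 23094 probe sets 1 gene symbol, 1770 several and 7009 none. Those with 1 symbol entered the limma fit (version 3.58.1, R 4.3.3, lmFit then eBayes with 4.38 prior degrees of freedom). Tests were 2-sided, p-values were adjusted by Benjamini-Hochberg over the whole table, and a gene's brightest probe set stood for it. The fit was tested on simulated data. Single within-array differences were compared with an exact permutation test. The number of arrays limits the precision. Intervals are 95% intervals.

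The members and gene lists were chosen with earlier results of these data known. All 10 members are named, and of the lists the called genes of at least 5 in log2 intensity (up to 4 in each direction per list), fixed partners and the 5 genes nearest to Mfge8. Alternatives were the methods' t-test, quantile, cyclic loess and median scaling, a pseudocount of 4, a filter on dim probe sets, all probe sets, an intensity trend, array weights, the replicate block, a fold of 1.5, the mean over probe sets and leaving out each array.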

Additional observations from a re-analysis of the deposited data

How the results depend on the processing

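The log2 fold change of Mfge8 stayed between -0.77 and -0.68 under 10 alternatives and between -0.95 and -0.66 without any 1 array. Mfge8 was chosen on these arrays, so both ranges describe its values and lend no support to a change. Of the 9 other genes, 1 was lower as reported. The lower ones were 2 after median centring, with array weights or with the replicate block, where Axl joined Itgb3, and 0 with a pseudocount of 4, a filter on dim probe sets (which removed Itgb3 and Tyro3) or a fold of 1.5. Without 1 array they were 0 to 2, and the higher ones were 0 throughout. Same-numbered arrays did not deviate together (correlations of -0.02 to 0.04), so replicate numbers were not taken as pairs, and 3 of 6 arrays correlated best with their own number. The sign turned for Mertk with quantile normalization (0.030), cyclic loess (0.020) and array weights (0.054), and for Itgav in the mean over its probe sets (0.0080). Without 1 array, Mertk lay between -0.078 and 0.093, Tyro3 between -0.023 and 0.015 and Itgb5 between -0.090 and 0.037.
Of the further efferocytosis genes, 15 were lower and 1 higher as reported. With the methods' t-test 9 were lower, and with a fold of 1.5 there were 2 lower and 0 higher. The higher ones were 0 with a pseudocount of 4 or the filter. Without 1 array, 9 to 22 were lower and 1 to 3 higher. Of 102 cell type markers, 23 were lower and 0 higher. The lower ones were 7 with the methods' t-test and 6 with a fold of 1.5, and 8 to 29 without 1 array. The higher ones were 1 with quantile normalization, cyclic loess, the intensity trend or the replicate block, 2 with a pseudocount of 4, and 0 to 2 without 1 array. Of all probe sets, 3.48% were lower and 3.07% higher as reported, 4.09% and 2.52% after median centring, 6.3% and 3.25% with the filter, 3.03% and 3.35% with all probe sets fitted, 1.71% and 1.47% with the methods' t-test, and 0.476% and 0.299% with a fold of 1.5. Apart from the genes that the filter removed, the cause of these differences was not tested. Signals near the low end of the scale limit what Tyro3, Itgb3 and Edil3 can show. The same holds for most markers of cholangiocytes, neutrophils, lymphocytes, platelets and monocytes.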
